A study of Mus musculus with 4 samples.

Results

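The genes described here encode SR proteins and heterogeneous nuclear ribonucleoproteins (hnRNPs), the main classes of protein that regulate where pre-mRNA is spliced. They were taken as every probe set whose gene symbol starts with Srsf and a digit or with Hnrnp. This gave 29 of 23185 named genes, 10 of the Srsf family and 19 of the Hnrnp family, after 1 pseudogene was left out. No level was required of a member, and all 29 reached the mean level needed for testing.

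RNA was measured on 4 Affymetrix arrays of erythroblasts, immature red cells, from mouse fetal liver at E14.5. Cells carrying the red cell surface marker Ter119 were selected with magnetic beads, and RNA was recovered with a commercial RNA immunoprecipitation kit, per the labels' protocols. The groups were the immunoprecipitate (IP) of an anti-Cpeb4 antibody (2 biological replicates), the precipitate of control rabbit IgG (1 array) and total input RNA (1 array, no antibody). No strain, genotype or pooling of livers was stated for any group, nor whether a control array came from the same cells as an IP replicate. In such bulk RNA, fewer cells of a type and less RNA per cell cannot be told apart.

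SR proteins bind exons through RNA recognition motifs and carry a tail rich in arginine and serine, whose phosphorylation controls their activity and location. They usually promote the use of nearby splice sites, whereas many hnRNPs bind silencer sequences and oppose it, and several members of both classes also act in export, stability or translation of mRNA. Splicing regulators commonly control their own transcripts through alternative exons, and splicing patterns change as erythroblasts mature. Cpeb4 belongs to the proteins that bind cytoplasmic polyadenylation elements in mRNA 3′ ends. The values below are levels of the regulators' own mRNAs in each RNA preparation, not of the proteins or of splicing.

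Srsf10 was the only member at least 2-fold above both controls in both IP replicates. Hnrnpa3 and Hnrnpa0 came next, 1.74-fold and 1.64-fold over input. Both IP replicates stood above IgG for 17 of the 19 hnRNP genes, or 89.5%, for 50% of the Srsf genes and for 75.9% of all members. The share was 80.0% of the tested genes in the same range of levels (the range of the members other than Srsf12, a background chosen after the data were seen). After the 4 arrays were quantile normalized again, Hnrnpdl, Hnrnpf, Hnrnpl and Hnrnpm lay below IgG on average. Of the hnRNP genes 15 and of the Srsf genes 8 were within 0.5 of input on the log2 scale, 79.3% of all members against 69.6% of all tested genes and 56.2% of those in that range. Differences are IP minus control in deposited log2 values throughout, and "rose" and "fell" mean a limma p below 0.05 after Benjamini-Hochberg adjustment over 13911 tested genes. Only the IP was replicated, so the test takes its spread from the IP arrays and supposes the same spread for the single controls.

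**Figure D1:**
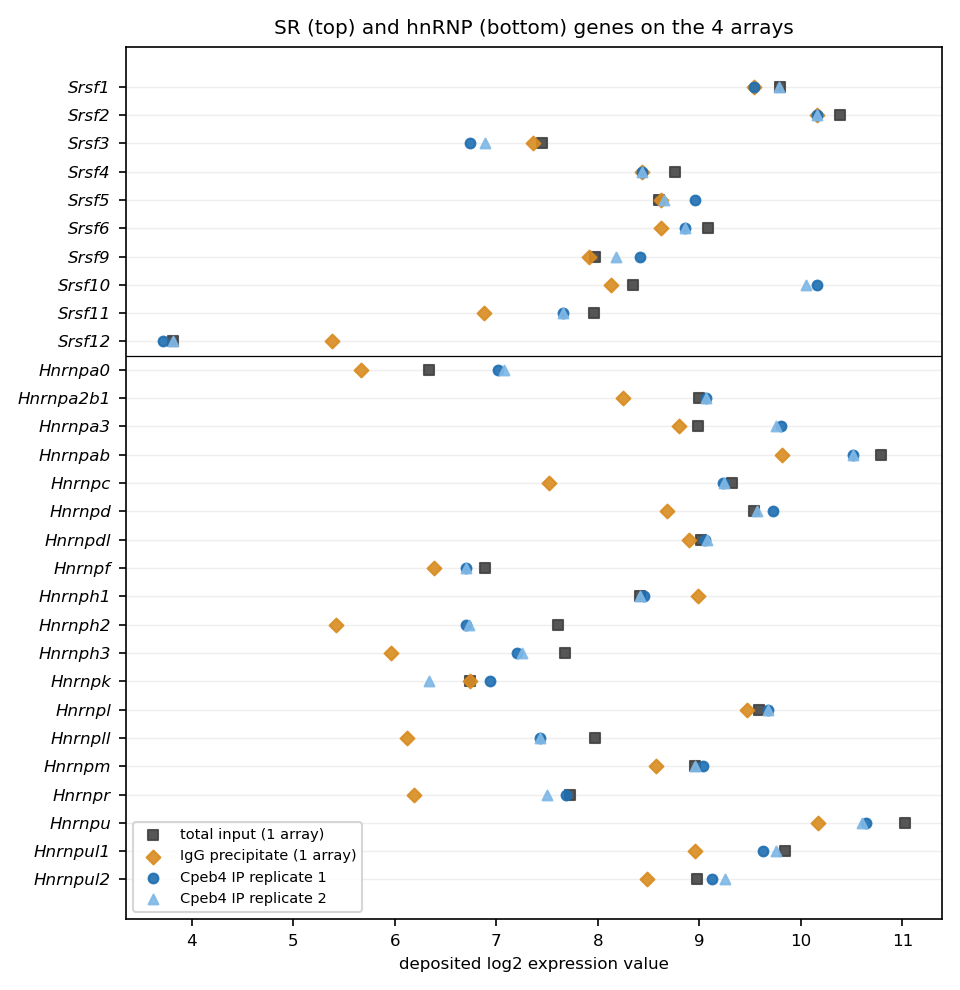
Deposited log2 value (horizontal axis) of each of the 29 genes on the input, IgG and both IP arrays, with Srsf genes above the line and Hnrnp genes below it. Symbols lie on top of each other where values are equal. Srsf10 is the gene whose IP symbols stand farthest to the right of both controls, and Srsf12 the gene whose IgG symbol stands farthest to the right of the others.

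Srsf10 (Entrez gene 14105), a member that can repress splicing when its tail is dephosphorylated, had values of 8.35 in input, 8.13 in IgG, and 10.16 and 10.05 in IP replicates 1 and 2. Both replicates stood above both controls, and the controls differed by only 0.22. The IP mean was 10.10 ± 0.080 (SD, n = 2), 3.94-fold above IgG (difference 1.98, SE 0.083, limma adjusted p = 0.0247). Over input it was 3.37-fold (difference 1.75, SE 0.083, limma adjusted p = 0.0452). Among all tested genes, 2.49% were at least 2-fold above both controls in both replicates. Srsf10 ranked 73rd of the 13911 by its smallest difference over both replicates and both controls. After the 4 arrays were quantile normalized again, it was 1.37 above IgG and 1.99 above input and passed against both. The call against input was lost with no filter on low values (limma adjusted p = 0.0589) and with a variance trend and robust fit (limma adjusted p = 0.073).

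Srsf12 (Entrez gene 272009), the closest relative of Srsf10 by structure, had values of 3.82 in input, 5.38 in IgG, and 3.71 and 3.82 in the IP replicates. The IgG array alone was high, while IP replicate 2 equalled input. The difference was -1.62 from IgG and -0.052 from input. Its mean over the 4 arrays, 4.18, passed the filter of 3.84 only through the IgG value, so a difference from IgG was required for it to be tested at all, and no test of it is given.

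Srsf3 (Entrez gene 20383), the smallest SR protein and an adaptor for mRNA export, was the only member with both IP replicates below both controls. Its values were 7.45 in input, 7.36 in IgG, and 6.74 and 6.89 in the IP. The differences of -0.54 from IgG and -0.64 from input did not pass the limma test (adjusted p = 0.107 and 0.134). They passed a test with 1 common IP spread per level of expression, and after quantile normalization again Srsf3 differed from IgG by -1.25 and passed limma there (adjusted p = 0.015). Among all tested genes, 11.9% had both replicates below both controls.

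Srsf1, the founding SR protein, and its paralogue Srsf9 differed little from either control. Srsf1 had 9.79 in input, 9.54 in IgG, and 9.54 and 9.79 in the IP replicates, so replicate 1 equalled IgG and replicate 2 lay just below input, at -0.0084. Srsf9 had 7.98, 7.91, 8.42 and 8.18 in the same order, above both controls by at least 0.21 in each replicate. Neither passed the limma test against either control, and Srsf9 passed the common-spread test against both (adjusted p = 0.0016 and 0.015). That held for the deposited values: after quantile normalization again Srsf9 differed from IgG by -0.30, without passing limma (adjusted p = 0.24).

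Srsf2, which binds exonic enhancers and also acts at transcription, and Srsf4, an SR protein with a long arginine and serine tail, had exactly the IgG value in both IP replicates. Srsf2 was at 10.16 in these 3 arrays and 10.38 in input, and Srsf4 at 8.44 and 8.76. The equality with IgG held only as deposited. After quantile normalization again both fell against IgG, with differences of -0.27 and -0.64 (limma adjusted p = 0.0358 and 0.0153). Against input, Srsf2 fell by 0.23 (limma adjusted p = 0.0217) and Srsf4 fell by 0.33 (limma adjusted p = 0.0179). Equal values on different arrays are common in these data, since 21.8% of tested genes were tied between the IP replicates (within 1e-09), as were 8 of the 29 members. With no spread between replicates, such genes pass limma at small differences: against input, 54.0% of tied genes and 13.9% of the others were called.

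Srsf6, a regulator of exon inclusion, lay between the controls, with 9.08 in input, 8.63 in IgG and 8.86 in both IP replicates. It rose by 0.23 over IgG and fell by 0.23 against input (limma adjusted p = 0.0116 and 0.0216), in each case with tied replicates, and passed neither contrast with the common spread. After quantile normalization again Srsf6 fell against IgG, with a difference of -0.36 (limma adjusted p = 0.0258). The call against input was then lost (limma adjusted p = 0.301). Srsf5, its paralogue, had 8.60, 8.62, 8.96 and 8.66 and passed against neither control. Srsf11, a relative of SR proteins that interacts with splice-site recognition factors, had 7.97 in input, 6.88 in IgG and 7.65 in both IP replicates. It rose by 0.78 over IgG and fell by 0.31 against input (limma adjusted p = 0.0063 and 0.0181), and both calls were lost after quantile normalization again, with differences of 0.050 and -0.16 (limma adjusted p = 0.399 and 0.138).

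Among the hnRNP A/B genes, whose proteins bind silencer sequences and AU-rich elements, Hnrnpa0, Hnrnpa2b1 and Hnrnpa3 rose over IgG, as did 29.2% of all tested genes and 54.1% of those in the members' level range. Hnrnpa3 rose over input too. Hnrnpa0 (Entrez gene 77134), which binds AU-rich mRNA, had 6.34 in input, 5.67 in IgG, and 7.02 and 7.08 in the IP. Its IP values exceeded both controls. The difference was 1.38 from IgG (2.60-fold, limma adjusted p = 0.0189) and 0.71 from input, where it missed the threshold as deposited (limma adjusted p = 0.0559) and passed after quantile normalization again (limma adjusted p = 0.0381). Hnrnpa3 (Entrez gene 229279), a close relative of the prototype hnRNP A protein, had 8.98 in input, 8.80 in IgG, and 9.81 and 9.76 in the IP. Its rise was 0.98 over IgG (1.98-fold, limma adjusted p = 0.0214). Over input it rose by 0.80 (limma adjusted p = 0.0424), a call that was lost with no filter (limma adjusted p = 0.0553) and with a variance trend and robust fit (limma adjusted p = 0.0685). Hnrnpa2b1, which also reads modified RNA and sorts RNAs for transport, had 8.99, 8.25, 9.07 and 9.07 and was 0.073 above input (limma adjusted p = 0.0605) and 0.82 above IgG (limma adjusted p = 0.0063), a difference that was 0.17 after quantile normalization again and did not pass (limma adjusted p = 0.0723). Processed copies of hnRNP A genes are frequent in mammalian genomes, so how their probes separate members is uncertain.

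Hnrnpc, whose protein binds uridine tracts and packages nascent transcripts, had the largest difference from IgG of the hnRNP genes and almost none from input. Its values were 9.32 in input, 7.52 in IgG, and 9.24 and 9.24 in the IP. The rise over IgG was 1.72 (3.29-fold, limma adjusted p = 0.0063), and the difference from input -0.084 (limma adjusted p = 0.0705). The IgG array was the low array, 1.80 below input.

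The same order of arrays, with IgG low and the IP between IgG and input, was seen for Hnrnph2, Hnrnph3, Hnrnpll and Hnrnpr. Hnrnph2 and Hnrnph3, which bind runs of guanines, had 7.60 and 7.67 in input, 5.43 and 5.97 in IgG, and 6.70 to 6.73 and 7.21 to 7.26 in the IP. Hnrnph2 rose by 1.29 over IgG (limma adjusted p = 0.0109) and fell by 0.88 against input (limma adjusted p = 0.0264). Hnrnph3 rose by 1.27 over IgG (limma adjusted p = 0.0168) and was -0.44 from input (limma adjusted p = 0.0704). Between the control arrays alone, IgG minus input was -2.18 for Hnrnph2 and -1.71 for Hnrnph3.

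Hnrnpll, a regulator of alternative exons in lymphocytes, had 7.98 in input, 6.12 in IgG and 7.43 in both IP replicates, a rise of 1.31 over IgG and a fall of 0.55 against input (limma adjusted p = 0.0063 and 0.0164). Hnrnpr, a relative of the translation regulator Syncrip, had 7.72, 6.19, 7.69 and 7.50. Hnrnpr exceeded IgG by at least 2-fold in each IP replicate but missed the limma threshold (adjusted p = 0.0551). It passed with a filter at the 60th percentile (limma adjusted p = 0.0473). After quantile normalization again it passed as well, at a difference of 0.80 that no longer met the 2-fold rule (limma adjusted p = 0.0416).

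Hnrnph1 went the other way from its relatives against IgG as deposited. It had 8.42 in input, 8.99 in IgG, and 8.46 and 8.42 in the IP, so the IgG array was the high array and IP replicate 2 equalled input. It fell by 0.55 against IgG (limma adjusted p = 0.0323), a call lost with a variance trend and robust fit (limma adjusted p = 0.055). After quantile normalization again the difference was -1.10 and at least 2-fold in both replicates (limma adjusted p = 0.013). Hnrnpf, the other member of this group, had 6.89, 6.38, 6.70 and 6.70. With tied replicates it rose by 0.32 over IgG and fell by 0.19 against input (limma adjusted p = 0.0089 and 0.0249). After quantile normalization again Hnrnpf fell against IgG too, with a difference of -0.30 (limma adjusted p = 0.0315), and lost the call against input.

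Among the hnRNP D genes, Hnrnpd, known as a factor in decay of AU-rich mRNAs, had 9.54 in input, 8.68 in IgG, and 9.72 and 9.56 in the IP, 0.96 above IgG without passing limma (adjusted p = 0.0679). It lay just outside the 2-fold rule, as did Hnrnpa3, with 1 replicate past 1.00 and the other short of it. Hnrnpab rose by 0.70 over IgG and fell by 0.27 against input with tied replicates, and Hnrnpdl rose by 0.17 over IgG. After quantile normalization again Hnrnpdl fell against IgG, with a difference of -0.36 (limma adjusted p = 0.0251). Of the U group, large nuclear proteins that bind chromatin and RNA, Hnrnpu rose by 0.45 over IgG (limma adjusted p = 0.031), while Hnrnpul1 and Hnrnpul2, 0.73 and 0.71 above IgG, did not pass.

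Hnrnpk, which binds cytidine-rich RNA, had the widest spread of any member between the IP replicates. Its values were 6.74 in input and in IgG, and 6.94 and 6.34 in IP replicates 1 and 2 (SD 0.42), so the replicates fell on either side of both controls. Hnrnpl, a binder of CA repeats, had 9.59, 9.47, 9.68 and 9.68 and passed limma with differences of 0.21 from IgG and 0.090 from input, with tied replicates. Its call against input was lost with the common spread (adjusted p = 0.491) and after quantile normalization again (limma adjusted p = 0.0912). Hnrnpm, a binder of GU-rich RNA, had 8.96, 8.58, 9.03 and 8.96, with IP replicate 2 equal to input.

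**Figure D2:**
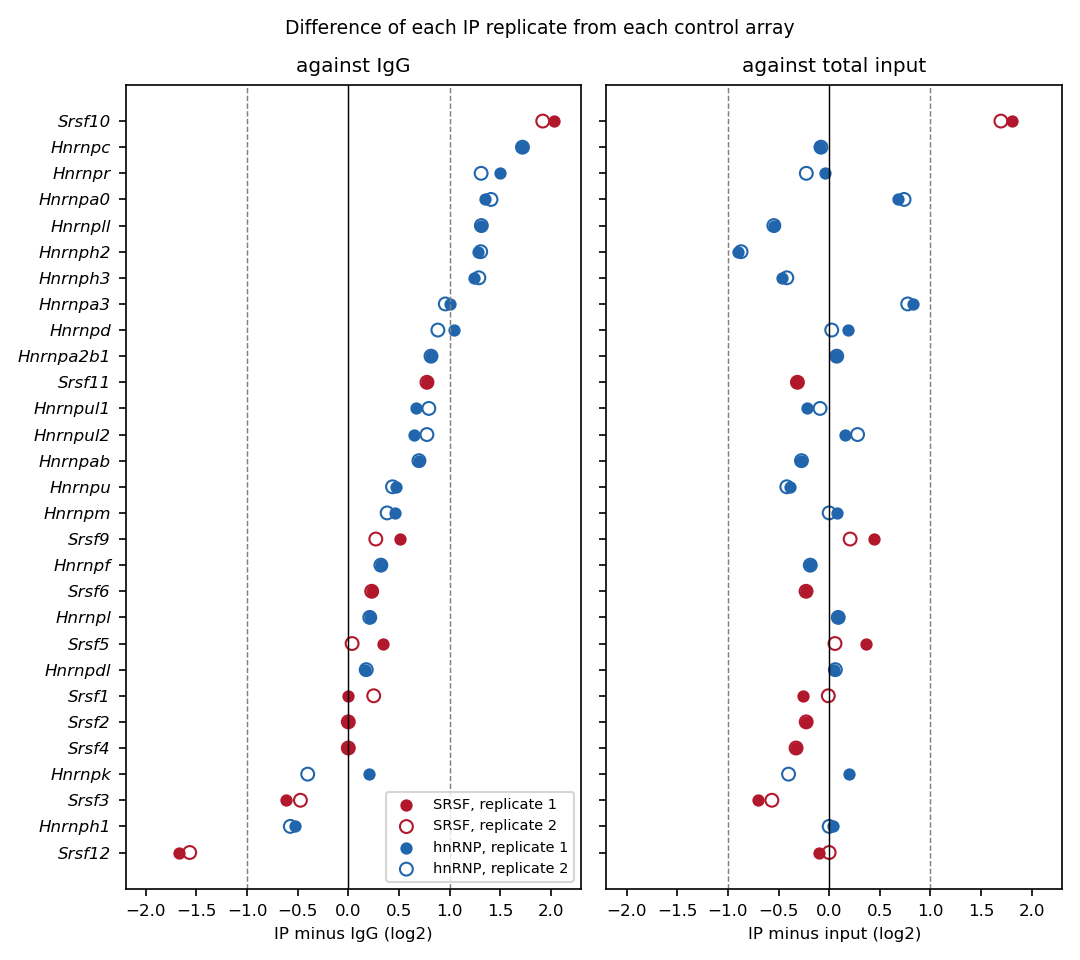
Difference of each IP replicate (filled, replicate 1; open, replicate 2) from the IgG array (left) and the input array (right) on the log2 scale, ordered by the mean difference from IgG. Dashed lines mark 2-fold. At least 2-fold from IgG in both replicates were 7 genes upward and 1 downward, Srsf12, and from input only Srsf10.

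Counted over the whole set, 15 members rose and 2 fell against IgG, where 29.2% of all tested genes rose and 17.2% fell. Srsf12 is among the falls, and without it 1 member fell and 0 were at least 2-fold lower. The hnRNP genes made up 12 of the 15 rises. By size, 7 members were at least 2-fold higher than IgG in both replicates and 1 was at least 2-fold lower, against backgrounds of 18.6% and 6.24%. Both IP replicates lay above IgG for 22 members (background 50.0%) and below it for 3 (background 37.3%), and 4 overlapped it. The median difference from IgG was 0.45 over the 29 members, 0.73 over the hnRNP genes and 0.16 over the Srsf genes, which turned to -0.33 after quantile normalization again. It was 0.080 over all tested genes but 0.74 over the 4669 tested genes whose mean level lay in the range of the members other than Srsf12. In that range 54.1% of genes rose over IgG, 36.4% were at least 2-fold higher and 80.0% had both replicates above it. These shares were at or above those of the members (51.7%, 24.1% and 75.9%).

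Against input, 3 members rose (Srsf10, Hnrnpa3 and Hnrnpl) and 8 fell, where 9.39% of all tested genes rose and 13.3% fell. In the members' level range 10.0% rose and 22.7% fell, beside 10.3% and 27.6% of the members. Of the 8 falls, 7 were of genes with tied IP replicates, and none reached 2-fold. The exception without a tie was Hnrnph2. By size, 1 member was at least 2-fold higher (background 4.04%) and 0 were at least 2-fold lower (background 5.18%), while 11 lay lower at an unadjusted limma p under 0.05. So did 3064 of the 13911 tested genes, and 1733 of the 4669 in the level range. Both IP replicates lay above input for 10 members (background 33.1%) and below it for 15 (background 38.7%). The median difference from input was -0.10 over the members, -0.0081 over all tested genes and -0.11 over those in the members' level range.

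Taking both controls, the same 3 members rose against each (background 4.96%) and 0 fell against each (background 2.11%, and 0 members at an unadjusted limma p under 0.05). In the members' level range, 421 of the 4669 tested genes rose against each and 146 fell against each. The common-spread test placed 4 members above both, Srsf9, Srsf10, Hnrnpa0 and Hnrnpa3 (background 10.9%), and 1 member, Srsf3, below both (background 3.76%). Of the 4669 genes in the level range it placed 940 above both and 265 below both. By size, Srsf10 was the 1 member above both and 0 were below both (background 0.503%). Both replicates lay above both controls for 10 members (background 20.5%, and 1523 of the 4669 in the level range), and above IgG but below input for 11 (background 22.2%). The latter are 37.9% of the members, and 39.6% of the tested genes in their level range had the same order. The contrasts share the IP arrays, and their difference is simply IgG minus input. When the controls were joined into 1 group, limma called 0 of all 13911 tested genes, and so 0 members, in a fit whose spread includes the gap between the control arrays. At an unadjusted limma p under 0.05 there were 4 members and 1112 of all tested genes. That fit therefore tells nothing particular to the members.

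The IgG and input arrays were set side by side without a test. IgG was lower than input for 25 members (86.2%, against 54.7% of all tested genes and 86.6% of those in the members' level range), higher for 3 (background 41.5%) and equal for 1, with a median of -0.46 (-0.15 over all tested genes, -0.91 over those in the members' level range). Hnrnph2 (-2.18), Hnrnpll (-1.86), Hnrnpc (-1.80), Hnrnph3 (-1.71), Hnrnpr (-1.54) and Srsf11 (-1.09) were at least 2-fold lower on the IgG array, where 23.9% of tested genes were. Srsf12 alone was at least 2-fold higher (1.57), where 7.93% of tested genes were. It reached the level for testing only through that IgG value, so its place there counts for nothing. After quantile normalization again, Hnrnph2, Hnrnph3 and Hnrnpll remained at least 2-fold lower on IgG. Hnrnph1 was then at least 2-fold higher (1.29), beside Srsf12 with the limit just given for the deposited values.

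**Figure D3:**
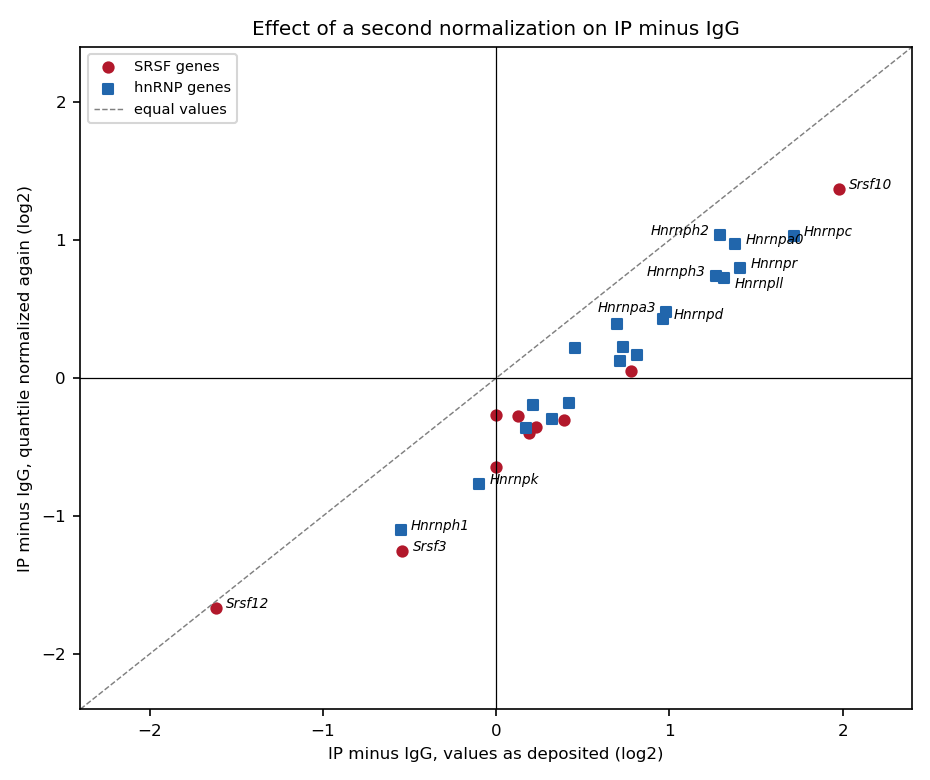
Mean IP minus IgG difference of each member with the values as deposited (horizontal) and after quantile normalization of the 4 arrays again (vertical), both on the log2 scale. All points lie below the line of equal values, Srsf10 stays at 1.37, and 8 genes that were above IgG as deposited lie below it after the second normalization.

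The scaling of the IgG array enters every difference from it. Over tested genes the IgG array had an SD of 1.46, against 1.83 for input and 1.76 for each IP replicate, a narrower range of values. With the arrays quantile normalized again, the members' median difference from IgG was 0.050 in place of 0.45, 9 members rose and 8 fell, and 3 were at least 2-fold higher: Srsf10, Hnrnpc and Hnrnph2. Srsf1, Srsf5, Srsf6, Srsf9, Hnrnpdl, Hnrnpf, Hnrnpl and Hnrnpm changed sign against IgG. Of these, Srsf6, Hnrnpdl and Hnrnpf rose as deposited and fell here (limma adjusted p = 0.0258, 0.0251 and 0.0315), and Hnrnpl lost its call. Among the members that kept their sign, Srsf11, Hnrnpa2b1 and Hnrnpu lost the call against IgG. Against input, the calls that remained were those of Srsf10, Hnrnpa3 and Hnrnph2, and Hnrnpa0 was added.

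Genes of splicing outside these families were examined in 3 lists. Among 35 tested regulators and hnRNP proteins under other symbols, 12 rose and 4 fell against IgG, and 4 rose and 3 fell against input. Against IgG these were 34.3% and 11.4%, where 29.2% and 17.2% of all tested genes rose and fell. Against input they were 11.4% and 8.57%, where 9.39% and 13.3% did. Of the 4669 tested genes in the members' level range, 2527 rose and 299 fell against IgG, and 469 rose and 1059 fell against input. After quantile normalization again 15 of this list rose and 12 fell against IgG, where 4295 and 4016 of all tested genes did. Pcbp2, a KH-domain protein that binds cytidine-rich RNA as Hnrnpk does, was the only gene of the 3 groups at least 2-fold above both controls in both replicates. It had 10.73 in input, 10.72 in IgG, and 11.81 and 11.92 in the IP, and passed limma against IgG (adjusted p = 0.0414) but not against input (adjusted p = 0.0663). Syncrip, the relative of Hnrnpr, rose by 1.97 over IgG and 0.88 over input (limma adjusted p = 0.0097 and 0.0326). Mbnl3, a muscleblind splicing factor, rose by 3.22 over IgG (limma adjusted p = 0.0074) and was 0.58 above input (limma adjusted p = 0.0505). Celf2, another RNA-binding splicing factor, had the largest difference from input, 1.52, without passing (limma adjusted p = 0.0555). At the low end were Rbfox3 (-1.25) and Rbfox1 (-0.64) against IgG, both highest on the IgG array. Rbfox1 reached the level for testing only through that array, so its place among the 4 falls counts for nothing, while Rbfox3 fell against IgG (limma adjusted p = 0.0065). Also low were Rbm39 (-1.01) and Rbm10 (-0.79) against input, which did not pass.

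The kinases, coactivators and importers of SR proteins did not share a direction against IgG as deposited. Of 16, 6 rose and 6 fell against IgG (37.5% each), and 0 rose and 5 fell (31.25%) against input, beside the same backgrounds. After quantile normalization again 3 rose and 9 fell against IgG, with a median of -0.49. Of all 13911 tested genes 4295 then rose and 4016 fell. Both IP replicates lay below input for 11 of the 16 and above it for 3 (backgrounds 38.7% and 33.1%). Against input, 3 stood higher at an unadjusted limma p under 0.05 and the common-spread test had 2 upward. For all 13911 tested genes these numbers were 2362 and 2044. Srpk2, a cytoplasmic kinase of SR proteins, rose by 1.88 over IgG and was 0.91 above input (limma adjusted p = 0.0993), and Tnpo3, their nuclear importer, rose by 1.19 over IgG and was -0.079 from input. Tnpo1, an importer of hnRNP A proteins, was 0.52 above input without passing. At the low end, Clk1, a nuclear kinase of SR proteins, differed from IgG by -1.02 without passing limma (adjusted p = 0.0744). Its IgG minus input difference was 0.66, and the IP differed from input by -0.36. Srrm2, an SR-related coactivator, fell by 0.86 against IgG and fell by 0.64 against input. Clk4, another nuclear kinase, was -0.69 from input without passing (limma adjusted p = 0.0573).

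In the core spliceosome, 18 of 33 tested genes rose and 1 fell against IgG, and 1 rose and 11 fell against input, with medians of 0.54 and -0.47. The rises over IgG were 54.5% of the list, where 29.2% of all tested genes and 54.1% of those in the members' level range rose. The falls against input were 33.3%, where these backgrounds were 13.3% and 22.7%. After quantile normalization again, the list's median against IgG was -0.025, with 10 rises and 13 falls. Snrpe, a subunit of the Sm ring of spliceosomal particles, was the gene that rose against input, by 0.95, and it rose by 3.33 over IgG. Snrpb2, a spliceosomal particle protein, rose by 1.66 over IgG. Snrpa (-1.58) was the gene that fell against it, and Snrpc (-0.99) did not pass. For Snrpb2, Snrpa and Snrpc, IgG minus input was -1.76, 1.40 and 0.88. The IP differed from input by -0.10, -0.18 and -0.11, where Snrpa alone passed (limma adjusted p = 0.0353). Snrnp70 was 0.30 above input and Prpf3 and Cdc5l were -1.18 and -1.11 from it, none past limma (adjusted p = 0.214, 0.185 and 0.0898).

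**Figure D4:**
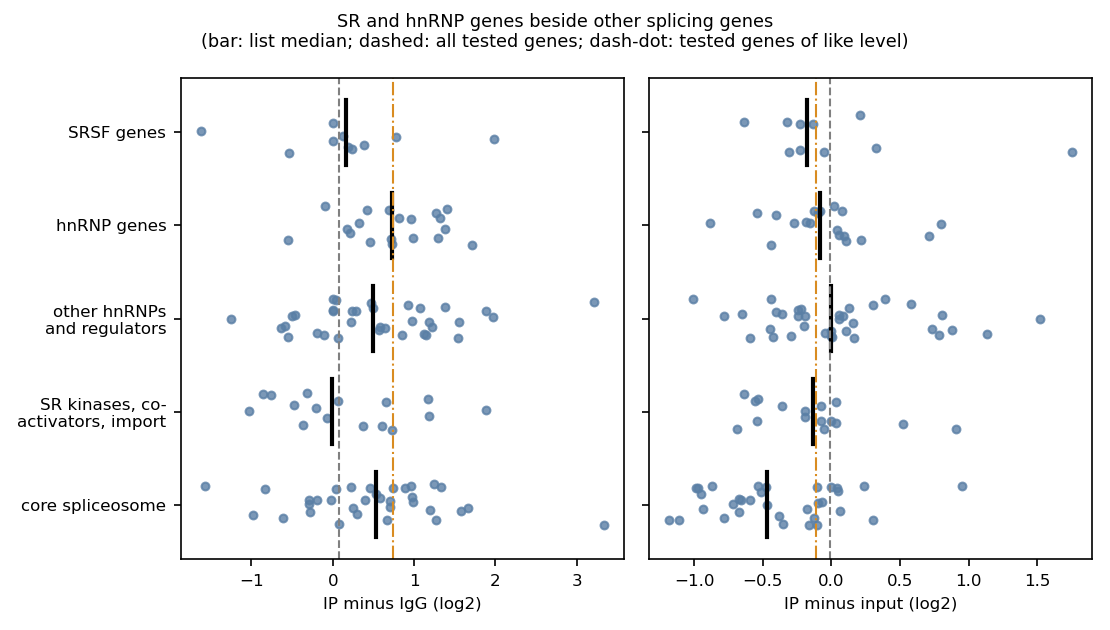
Mean IP minus IgG (left) and IP minus input (right) difference on the log2 scale for the tested genes of each group, 1 point a gene with vertical jitter, and the group median as a bar. The dashed line is the median of all tested genes and the dash-dot line that of tested genes in the members' level range. Against input the core spliceosome median lies lowest, at -0.47, and the Srsf point at 1.75 is Srsf10.

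Markers of the labelled cells were high on all arrays: the lowest of 9 measured erythroblast markers was 8.22 (Klf1, on IgG) and Slc4a1 reached 12.20 in input. The log2 of their summed level was 14.37 in input, 14.14 in IgG and 14.15 in both IP replicates. Both IP replicates lay above both controls for 1 of the 9 and below both for 4, against 20.5% and 11.9% of all tested genes. Markers of other cells were higher in the IP by summed level. Both replicates were above both controls for 5 of 5 megakaryocyte, 5 of 5 hepatocyte, 4 of 7 neutrophil and 3 of 7 macrophage markers, and below both for 0 in each list. Their summed levels were 9.84 in input, 10.79 in IgG and 11.46 to 11.59 in the IP for megakaryocytes, and 9.39, 10.73 and 11.33 to 11.34 for neutrophils. For macrophages they were 7.42, 7.88 and 8.61 to 8.84, and for hepatocytes 6.37, 7.24 and 8.60 to 8.81. Some hepatocyte markers were low on all arrays, such as Fgb (3.28 to 4.05) and Ttr (4.19 to 4.34), and 4 of the 5 reached the level for testing. The part of cells other than erythroblasts in the levels of Srsf10, Hnrnpa0 and Hnrnpa3 was not tested.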

How the data were processed

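The deposited table holds the authors' log2 values for each probe set on each array. Per the submitters' processing notes, RMA and the affy package were used. Versions, settings and probe definitions were not given in the sources used here. Probe sets carry Entrez numbers, and 23185 of 25206 had 1 symbol in the array's annotation, which can be old, while 2021 had none there and were not used. The array number limits the precision, and no detection calls or probe sequences were used.

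Testing was limited to the 13911 named genes with a 4-array mean at or above their 40th percentile (log2 value 3.84). Contrasts were fitted with limma 3.58.1 in R 4.3.3 (lmFit, eBayes, 3 groups, 1 residual degree of freedom), adjusted over all tested genes. The size rule asked for 2-fold in both IP replicates. The common-spread test used 1 IP spread per bin of expression (20 bins) and a normal distribution. The scripts were tested on simulated data with and without tied replicates. Replicates are labelled biological, and nothing more was stated on their source.

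The members, gene lists, tests and alternatives were chosen with earlier results of these data known. All members could be named. From the other lists, genes were named as the 2 highest and 2 lowest per contrast.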

Additional observations from a re-analysis of the deposited data

How the results depend on the processing

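With 2 IP arrays and 1 array per control, depth in the sense of signal over background could not be assessed, and control differences have no replicate check. Among single-gene differences under the alternatives that could move a limma call (fold thresholds and left-out replicates could not), 338 were counted as unchanged, 25 lost and 28 gained the call, 2 moved from 0 and 11 changed sign. The unchanged kept their direction and side of the threshold, except that a difference of 0 as deposited was judged only by the size of its shift. So the 338 include Srsf2 and Srsf4 against IgG, which relative to the median of tested genes fell by 0.081 (limma adjusted p = 0.0275 for each). The 2 that moved from 0 were the same genes against IgG after quantile normalization again. Their differences there were -0.27 and -0.64, and both fell (limma adjusted p = 0.0358 and 0.0153). Quantile normalization again gave medians of 0.050 against IgG and 0.030 against input (in place of 0.45 and -0.10) and 0.27 for IgG minus input (in place of -0.46). It gave 9 rises, 8 falls, 3 members at least 2-fold higher and 3 lower against IgG, 1 fall against input, and 2 members at least 2-fold higher and 3 lower on IgG than on input. Srsf12, which as deposited was tested only through its IgG value, is among the 8 falls and the 3 lower against IgG. It is also among the 2 higher on IgG than on input. The changes of sign there were, against IgG, Srsf1 (-0.27), Srsf5 (-0.40), Srsf6 (-0.36), Srsf9 (-0.30), Hnrnpdl (-0.36), Hnrnpf (-0.30), Hnrnpl (-0.19) and Hnrnpm (-0.18), and, against input, Hnrnpc (0.080), Hnrnpk (0.042) and Hnrnpr (0.030). The cause was not tested. Relative to the median of tested genes, the median was 0.37 against IgG and -0.31 for IgG minus input, with 4 falls against IgG and 2 against both controls. Without each IP replicate in turn, the median ranged from 0.44 to 0.51 against IgG and from -0.088 to -0.081 against input, and Hnrnpk was 0.20 above both controls without replicate 2. The 60th percentile filter left 1 fall against IgG, since Srsf12 was no longer tested. With trend and robust there was 1 fall against IgG and 1 rise against input and against both, and with no filter 1 rise against input and against both. At an adjusted p below 0.1, 5 members rose against input and against both, and the common-spread test had 1 fall against both. With 1 control group 0 members rose, as 0 of all tested genes passed. At 1.5-fold, 14 members were higher than IgG, 3 higher and 1 lower than input, 3 higher than both, and 12 lower on IgG than on input. At 4-fold the numbers were 0 higher and 0 lower than IgG, 0 higher than input or both, and 0 higher and 1 lower on IgG than on input. No paired analysis was possible because each control is a single array without a replicate number.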
